A study of Mus musculus with 10 samples.

Results

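The genes described are those of the proteasome, chosen by name: every gene in the table whose symbol starts with Psma, Psmb, Psmc, Psmd, Psme, Psmf or Psmg followed by a digit, pseudogenes left out. This gave 48 genes of 12637 in the table, of which 5 form the immunoproteasome set (Psmb8, Psmb9, Psmb10, Psme1 and Psme2) and 43 are the others. All 48 had a mean of at least 0.5 RPKM (reads per kilobase of transcript and per M reads of the library, M standing for mega) over the libraries and were tested. The subunit genes Psma8 and Psmb11 are not in the table. The RNA came from CD8+ T cells sorted from the spleens of 6-week-old female C57Bl/6 mice as CD62L high and CD44 low or negative, which is the naive surface phenotype. The mice were WT or Ikaros-Zn4-/-, written Zn4 below, which lack zinc finger 4 of the lymphocyte transcription factor Ikaros; the labels name no Cre, so the change is taken as present in all cells of the animal. The cells were used directly (0 min) or kept for 30 or 120 min on plates coated with anti-CD3, which triggers the T cell receptor, and anti-CD28, which triggers a costimulatory receptor. The groups are WT 0 min, WT 30 min, Zn4 0 min and Zn4 30 min with 2 libraries each, and WT 120 min and Zn4 120 min with 1 each. The labels do not say whether libraries of a group came from separate mice or whether mice were pooled, so p-values measure the spread between these libraries, which may be technical.

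The proteasome degrades proteins marked with ubiquitin. Its 20S core is a barrel of alpha and beta rings whose catalytic sites sit on beta subunits, and the 19S cap, made of an ATPase ring and non-ATPase subunits, binds, unfolds and feeds in the substrate. In lymphocytes and after interferon, the inducible subunits Psmb8, Psmb9 and Psmb10 take the place of the constitutive catalytic subunits Psmb5, Psmb6 and Psmb7, and the PA28 activator, made of Psme1 and Psme2, can replace the 19S cap. This form, the immunoproteasome, favours peptides that bind MHC class I molecules. Dedicated chaperones help both the core and the cap to assemble.

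Depth, estimated from the steps of the RPKM values, was 4.50 to 13.3 M reads per library. The CD8 T cell marker list was present in full (8 of 8 genes), and its summed level was 3828 to 5045 RPKM at 0 min, 2853 to 4445 at 30 min and 1437 to 1658 at 120 min, Cd8a alone going from 390 to 511 RPKM at 0 min to 47.5 and 52.2 at 120 min. Of markers of other cells, Ms4a1, Pax5, Cd4, Foxp3, Zbtb7b, Ncr1, Klrb1c, Klra8, Csf1r, Adgre1, Itgax, Flt3, Zbtb46 and Xcr1 are not in the table. RPKM is a share of each library's reads: the median gene changed by -0.13 on the log2 scale at 30 min and by -0.32 at 120 min. Each log2 change of log2(RPKM + 1) is therefore also given relative to the median gene, while the adjusted p (limma, Benjamini-Hochberg over 12203 genes) tests the change as deposited. In RNA from a population, fewer cells of a type and less RNA per cell cannot be told apart.

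At rest and throughout, the subunits of each ring differed widely in RPKM. Over the 10 libraries the mean of the alpha ring genes, which form the gate of the core, ran from 2.51 RPKM for Psma3 to 54.1 for Psma2, with a median of 22.9. The constitutive beta ring ran from 14.3 RPKM for Psmb3 to 97.9 for Psmb1, and the 6 ATPases, which unfold substrate, from 12.8 for Psmc2 to 59.0 for Psmc5. The 11 non-ATPase subunits ran from 5.49 RPKM for Psmd11 to 62.4 for Psmd8. The inducible beta genes were among the more abundant members, at 34.3 RPKM for Psmb9, 54.6 for Psmb8 and 93.8 for Psmb10, and the 7 assembly factors among the less abundant, at 1.48 for Psmg3 to 15.7 for Psmg4. Psmc3ip, a meiotic recombination factor named for its binding to an ATPase subunit and no part of the proteasome, had 1.14 RPKM and only 5 to 29 reads per library. Subunits that enter the particle in equal numbers thus had RPKM values that differed by up to 21.5 times within the alpha ring. RPKM divides by a length assigned to each gene, so ratios between genes need not be ratios of mRNA. The annotated exons of the alpha ring genes cover 1234 (Psma6) to 3894 bases (Psma3). Some of these genes have near copies: 49.96% of the 50-base words of Psma5 and 54.1% of those of Psmb5 also occur in transcripts of other genes, mostly processed pseudogenes, as do 15.4% of those of Psma3, and how the authors treated reads that match several places is not given in the sources used here.

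**Figure D1:**
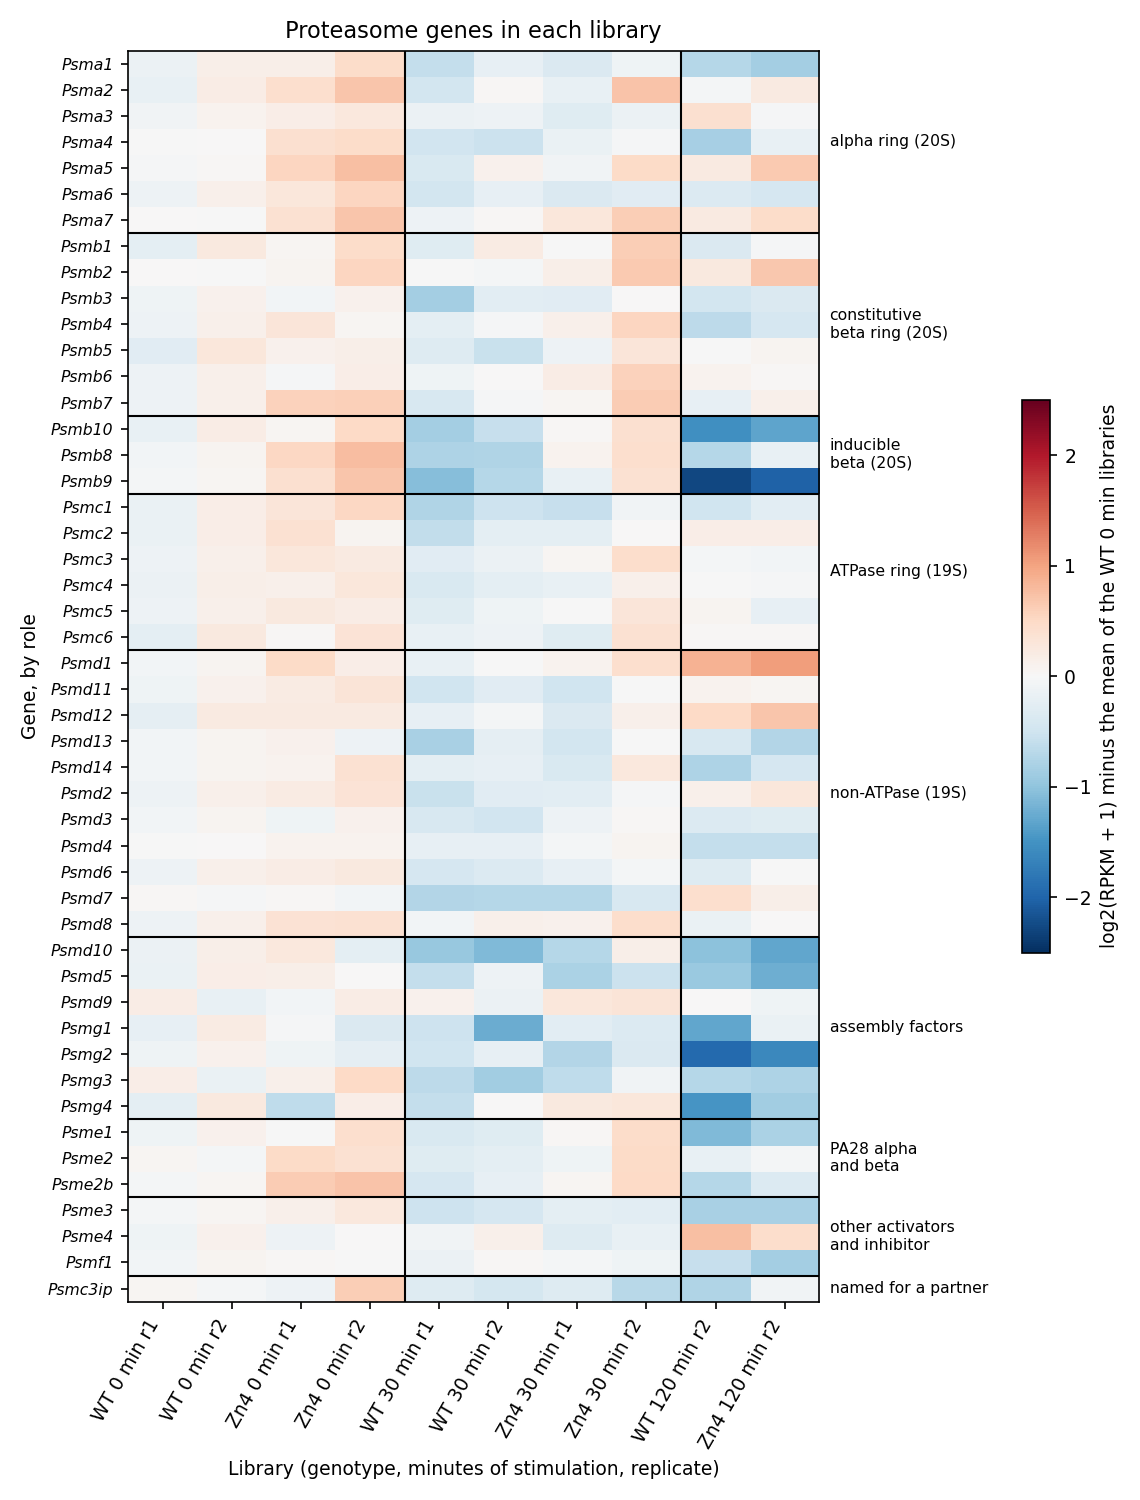
Each row is 1 of the 48 proteasome genes, grouped by role, and each column 1 of the 10 libraries; the colour is log2(RPKM + 1) minus the mean of the WT 0 min libraries. The lowest values are those of Psmb9 and Psmg2 in the 120 min columns, and the highest those of Psmd1.

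After 120 min of stimulation the proteasome genes split by role. The inducible beta genes, Psme1 and most assembly factors fell, Psmd1 and Psme4 rose, and the alpha ring, constitutive beta, ATPase and non-ATPase genes had median changes of 0.13, 0.00, 0.17 and 0.05 relative to the median gene of the table. Over both genotypes 21 of the 48 members were called lower and 2 higher than at 0 min at a limma adjusted p below 0.05, while 25 were not called. Among all genes tested 40.4% were called lower and 19.3% higher, so the share of members called lower, 43.8%, is near that of all genes. The median change of the members was -0.33, or -0.02 relative to the median gene. By role, 3 of 3 inducible beta genes, 6 of 7 assembly factors, 3 of 7 alpha, 1 of 7 constitutive beta, 1 of 6 ATPase and 3 of 11 non-ATPase genes were called lower. The split depended on the scaling of the libraries. With each library scaled by its median ratio, 15 members were called lower and 11 higher, and with quantile normalization 17 and 4, while over all genes the calls went from 2356 higher and 4935 lower as deposited to 3650 and 3649, and 3411 and 3504. Calls made under all 3 scalings were 13 lower and 2 higher. Leaving out each library in turn kept 13 of the 23 calls in every case, and the 120 min groups hold 1 library per genotype, assumed to vary like the others.

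**Figure D2:**
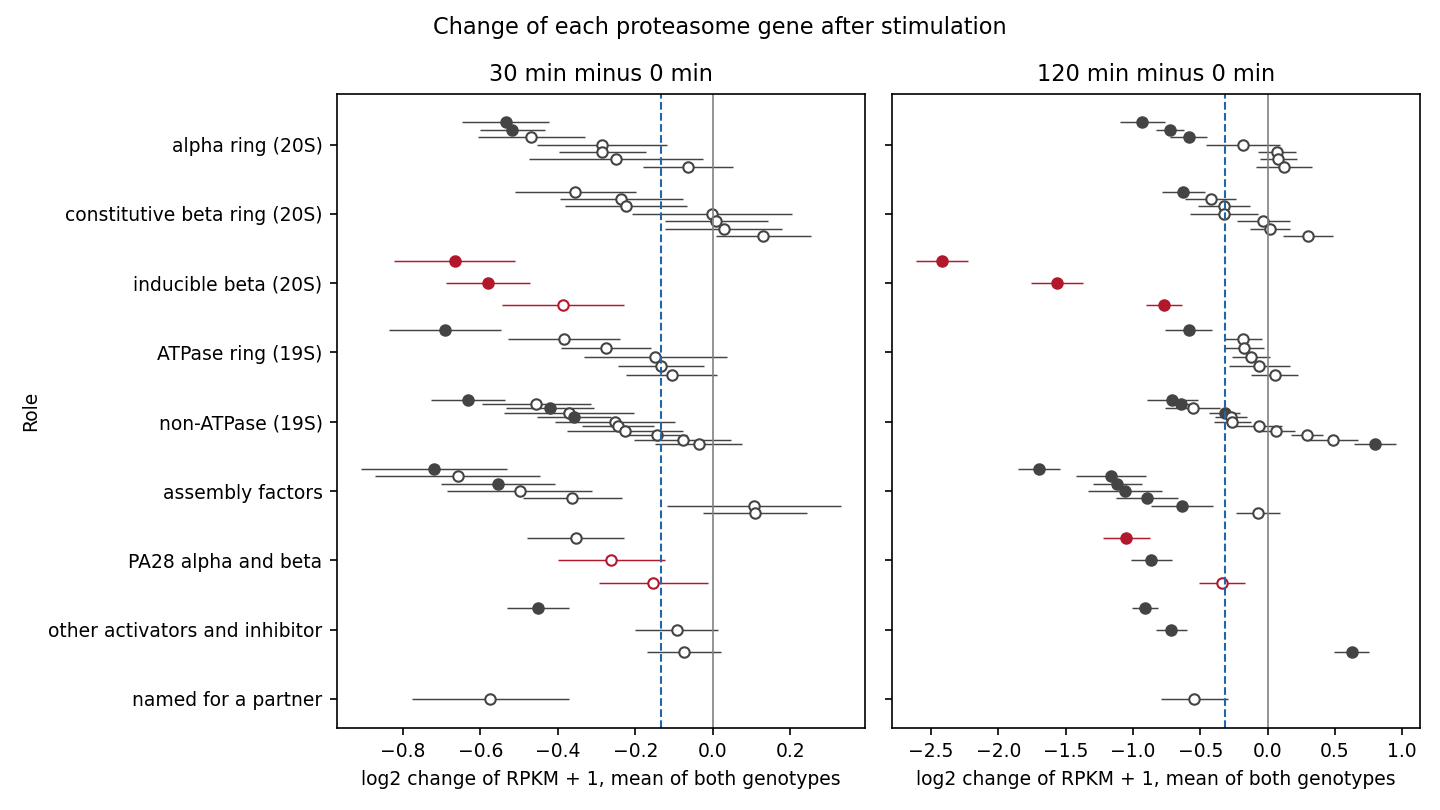
Each point is 1 gene, with its standard error, placed by its log2 change of RPKM + 1 over both genotypes at 30 min (left) and 120 min (right, wider scale); filled points had a limma adjusted p below 0.05, red marks the immunoproteasome set, and the dashed line is the median of all genes tested. At 120 min the inducible beta and assembly genes lie left of the dashed line except Psmd9, and Psmd1 and Psme4 lie right of 0.

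Psmb9, Psmb10 and Psmb8 carry the inducible catalytic sites. Psmb9 (chromosome 17, 34181987 to 34187764 on GRCm38, minus strand) fell furthest of all members. Its level was 38.4 and 41.2 RPKM in the WT 0 min libraries, 18.6 and 23.7 at 30 min and 7.39 at 120 min, and in Zn4 cells 52.7 and 64.7, then 34.8 and 52.3, then 9.09. Both 120 min libraries lie below every other library, at 18.6% of the 0 min mean in WT and 15.5% in Zn4. Of all genes tested, 43.3% had both 120 min libraries below all 0 min libraries, and 36.4% below all 30 min libraries. The first held for 23 of the 48 members. The log2 change of Psmb9 was -2.42 (-2.10 relative to the median gene, SE 0.19, limma adjusted p 8.3e-05). Psmb10 (chromosome 8, 105935735 to 105938444, minus strand) had 94.2 and 121 RPKM in WT and 111 and 151 in Zn4 cells at 0 min. At 120 min it had 36.2 and 42.4 RPKM, again below every other library, with a log2 change of -1.56 (-1.25 relative, SE 0.19, limma adjusted p 0.00047). For Psmb8 (chromosome 17, 34197721 to 34201454, plus strand) the fall was smaller and, in WT cells, was complete by 30 min: 51.0 and 55.8 RPKM at 0 min, 30.8 and 31.1 at 30 min, 32.3 at 120 min. In Zn4 cells Psmb8 had 77.1 and 92.1, then 57.0 and 71.7, then 46.8 RPKM. Over both genotypes its log2 change at 120 min was -0.77 (-0.45 relative, SE 0.13, limma adjusted p 0.0022). These 3 calls held under each scaling and without each library in turn. The library kit does not mark strand, and 11.9% of the 50-base words of Psmb8 also occur in other transcripts, mostly the antisense Gm20496, as do 4.19% of those of Psmb9 in Tap1, so reads from these stretches cannot be told apart.

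None of the constitutive counterparts was called. Psmb5 had 16.9 to 25.6 RPKM in the 4 libraries at 0 min and 20.8 and 21.8 at 120 min, Psmb6 had 24.6 to 30.2 and then 28.4 and 27.3, and Psmb7 had 25.2 to 42.1 and then 23.9 and 30.3. Their log2 changes of -0.03, 0.02 and -0.32 (0.29, 0.34 and -0.01 relative) had limma adjusted p of 0.91, 0.92 and 0.19; with median ratio scaling Psmb6 was called higher (0.018). The RPKM of each inducible subunit over that of its counterpart therefore shrank. Whether such a ratio lies above 1 also depends on the gene lengths by which RPKM divides the reads. Psmb9 over Psmb6 went from 1.41 to 2.14 at 0 min to 0.26 in WT and 0.33 in Zn4 cells at 120 min, and was the only ratio of the 3 to pass below 1 in any library; in WT cells it was below 1 already at 30 min, at 0.75 and 0.87. Psmb10 over Psmb7 went from 2.70 to 4.04 at 0 min to 1.52 and 1.40. Psmb8 over Psmb5 went from 2.18 to 3.97 to 1.55 and 2.14.

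**Figure D3:**
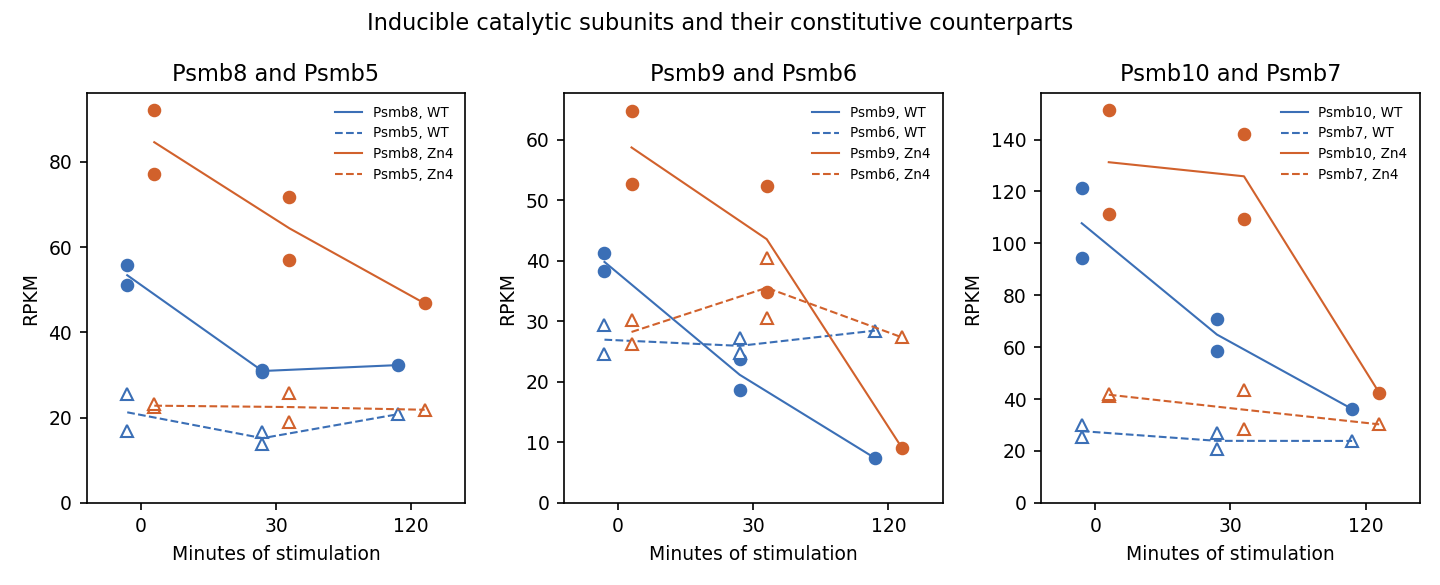
Each panel plots RPKM in every library against minutes of stimulation for an inducible catalytic subunit (filled circles, solid line through the group means) and its constitutive counterpart (open triangles, dashed line), WT in blue and Zn4 in orange. At 120 min Psmb9 lies below Psmb6 in both genotypes, while Psmb8 and Psmb10 stay above Psmb5 and Psmb7.

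In the PA28 activator, Psme1 (alpha) fell and Psme2 (beta) did not pass the test. Psme1 (chromosome 14, 55578123 to 55581529, plus strand) had 94.2 and 108 RPKM in WT and 101 and 135 in Zn4 cells at 0 min. It had 76.9 and 82.0 in WT and 103 and 139 in Zn4 cells at 30 min. At 120 min it had 46.6 and 57.9 (log2 change -1.05, -0.73 relative, SE 0.17, limma adjusted p 0.0018). These values lie below all other libraries, and 43.3% of all genes tested likewise lay below their 0 min libraries. Psme2, 5911 bases from Psme1 on the other strand, had 21.7 to 32 RPKM at 0 min and 19.7 and 21.7 at 120 min (log2 change -0.34, -0.02 relative, limma adjusted p 0.12). Psme2b, annotated on chromosome 11 (48945354 to 48946190) as 1 exon of 837 bases, had 153 to 261 RPKM at 0 min and 96.6 and 124 at 120 min (log2 change -0.86, -0.55 relative, limma adjusted p 0.0025). These 2 genes share sequence: 69.3% of the 50-base words of Psme2b occur in other genes' transcripts, nearly all in Psme2, and 28.3% of those of Psme2 occur in Psme2b. Values of both are uncertain for that reason, and which of them the reads came from was not tested.

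As a set, the immunoproteasome genes started above the other members, and their lead was smaller at 120 min, by an amount that depended on the use of means or medians. The mean log2(RPKM + 1) of the 5 genes minus that of the other 43 was 1.49 and 1.43 in the WT 0 min libraries, 1.18 and 1.18 at 30 min and 0.594 at 120 min. In Zn4 cells it was 1.59 and 1.75, then 1.63 and 1.77, then 0.774. The 120 min libraries of both genotypes are the lowest, and at 30 min the WT libraries lie below all others of 0 and 30 min while the Zn4 libraries do not. With medians in place of means this order changes: the difference was 1.39 and 1.10 in the WT 0 min libraries, 0.974 and 0.813 at 30 min and 0.833 at 120 min, and in Zn4 cells 1.74 and 1.91, then 1.61 and 1.63, then 1.08, so that WT 30 min replicate 2 lies below WT 120 min and both WT 30 min libraries below Zn4 120 min. Averaged over genotypes the change of this difference was -0.127 at 30 min and -0.883 at 120 min (-0.277 and -0.577 with medians), beside a spread of the difference of means between libraries of a group of 0.076 (pooled SD); no test was made of the score. At 120 min 4 of the 5 were called lower, with a median relative change of -0.73, against 17 of the other 43, with a median of 0.00. Of all genes tested 40.4% were called lower, near the share of the other 43. In the summed RPKM of all members the 5 genes made up 20.2% to 22.8% at 0 min, 16.9% to 22.2% at 30 min and 12.2% and 13.6% at 120 min. The summed CD8 T cell marker level fell between the same libraries, and its part in these changes was not tested.

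The promoter windows of Psmb9, Psmb10, Psmb8 and Psme1 are shown because these are the 4 immunoproteasome genes called lower at 120 min; Psme2, which was not called, is left out. Each is 300 bases, from 250 before to 50 after the RefSeq start on GRCm38.p6, written 5′ to 3′ on the gene's strand, with matches to any of 3 searched motifs in capitals. The motifs, searched on both strands, were TGACNNNGC (core of the antioxidant element, which binds NRF1 and NRF2), GAAANNGAA (core of the interferon element) and TTCNNNGAA (core of the STAT element). Psmb9 and Psmb8 flank Tap1, which encodes a chain of the peptide transporter of the class I pathway: Psmb9 (chr17:34187281-34187580, minus strand) shares 275 bases of its window with that of Tap1, and Psmb8 (chr17:34197945-34198244, plus strand) is a gene whose annotated start lies 495 bases past the end of Tap1. Psmb10 is at chr8:105938343-105938642 on the minus strand, and Psme1 is at chr14:55578244-55578543 on the plus strand. The 495 bases run to the GENCODE start of Psmb8, which is not the RefSeq start used for its window. By GENCODE positions the windows of Psmb9, Psmb8 and Psme1 lie wholly within the genes, and that of Psmd1, printed further below, almost wholly.
Psmb9: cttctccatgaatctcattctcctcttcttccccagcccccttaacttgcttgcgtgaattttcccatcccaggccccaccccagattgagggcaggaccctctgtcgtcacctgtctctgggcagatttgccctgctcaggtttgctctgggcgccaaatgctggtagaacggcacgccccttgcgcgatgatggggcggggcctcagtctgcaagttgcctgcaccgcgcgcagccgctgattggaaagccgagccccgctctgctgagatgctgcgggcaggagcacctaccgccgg
Psmb10: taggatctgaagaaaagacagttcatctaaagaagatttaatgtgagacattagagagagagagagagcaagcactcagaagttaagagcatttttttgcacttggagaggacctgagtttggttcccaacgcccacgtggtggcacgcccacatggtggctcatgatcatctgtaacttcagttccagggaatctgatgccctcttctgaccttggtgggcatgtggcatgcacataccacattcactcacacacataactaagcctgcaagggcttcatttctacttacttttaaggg
Psmb8: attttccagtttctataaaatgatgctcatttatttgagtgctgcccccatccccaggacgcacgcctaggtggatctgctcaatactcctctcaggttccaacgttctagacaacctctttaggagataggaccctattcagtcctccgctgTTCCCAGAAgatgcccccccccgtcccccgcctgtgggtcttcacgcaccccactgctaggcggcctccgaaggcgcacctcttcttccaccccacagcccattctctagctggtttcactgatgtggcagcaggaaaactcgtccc
Psme1: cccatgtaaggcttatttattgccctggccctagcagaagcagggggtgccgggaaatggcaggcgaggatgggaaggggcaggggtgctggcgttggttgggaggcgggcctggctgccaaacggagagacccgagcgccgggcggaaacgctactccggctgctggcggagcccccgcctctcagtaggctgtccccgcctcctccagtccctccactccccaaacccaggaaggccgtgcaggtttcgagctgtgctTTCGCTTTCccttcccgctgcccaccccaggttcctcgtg
None of the 3 motifs is present in the Psmb9 and Psmb10 windows, and Psmb8 holds TTCCCAGAA 97 to 89 bases before the RefSeq start. Psme1 holds TTCGCTTTC, the interferon element core on the other strand, within the part transcribed from its RefSeq start. Tap1 itself, which starts in the same window as Psmb9, had 84.4 to 115 RPKM at 0 min and 54.1 and 63.8 at 120 min (log2 change -0.70, limma adjusted p 0.0017, not called with median ratio scaling).

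Of the 7 assembly factors 6 were called lower at 120 min, beside 40.4% of all genes, and Psmd9, a chaperone of the cap's ATPase ring, was not called. Their summed level was 67.1 and 82.7 RPKM in WT and 69.7 and 71.5 in Zn4 cells at 0 min, 48.2 and 56.1, and 58.3 and 70.8 at 30 min, and 28.2 and 35.6 at 120 min, so the 120 min libraries lie below all others. The median change of the 7 genes was -1.06, or -0.74 relative to the median gene. The furthest was Psmg2, which with Psmg1 forms a chaperone of the alpha ring: 17.2 and 20.4 RPKM in WT and 17.3 and 15.9 in Zn4 cells at 0 min, 10.9 to 16.2 at 30 min, and 4.14 and 5.44 at 120 min. Its log2 change of -1.70 (-1.38 relative, SE 0.16, limma adjusted p 0.00014) held under each scaling and without each library. Psmd10 and Psmd5, 2 further chaperones of the ATPase ring, changed by -1.16 and -1.12 (limma adjusted p 0.0072 and 0.0016), Psmg4 by -1.06 (0.013), Psmg3, its partner as a chaperone of the alpha ring, by -0.89 (0.013) and Psmg1 by -0.64 (0.046). Psmd9 had 3.16 to 4.41 RPKM at 0 min and 3.80 and 3.41 at 120 min (log2 change -0.07, limma adjusted p 0.73). Several of these calls rested on 1 of the 120 min libraries. Without the Zn4 120 min library the adjusted p was 0.061 for Psmd10 and 0.12 for Psmg3, and without the WT 120 min library it was 0.22 for Psmg4 and 0.97 for Psmg1. Psmg1 had 3.40 RPKM in WT cells at 120 min, against 8.38 and 11.4 at 0 min, but 8.57 RPKM in Zn4 cells, which is 101% of the Zn4 mean at 0 min, and its log2 change without the WT 120 min library was 0.02. Psmg1 also lost its call without WT 0 min replicate 2 (0.12), either Zn4 0 min library (0.11 and 0.053) or either Zn4 30 min library (0.070 and 0.071), and under both other scalings. Psmg3, which has 10 to 84 reads per library, was not called with quantile normalization (0.12), while Psmg2, Psmg4, Psmd5 and Psmd10 were called under each scaling. Pomp, the maturation factor of the core, which has no Psm name, was 71.3 to 105 RPKM at 0 min and 44.4 and 50.9 at 120 min (log2 change -0.87, limma adjusted p 0.0046).

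**Figure D4:**
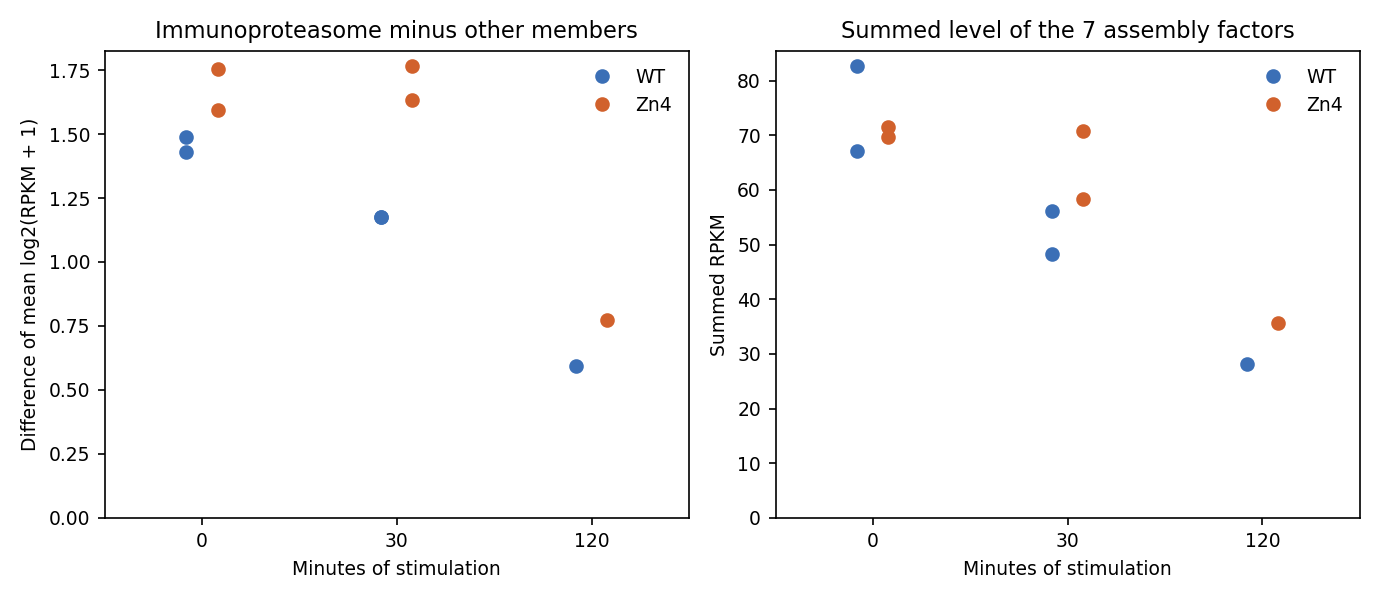
For each library, by minutes of stimulation, the left panel gives the mean log2(RPKM + 1) of the 5 immunoproteasome genes minus that of the 43 other members, and the right panel the summed RPKM of the 7 assembly factors; WT in blue, Zn4 in orange. In both panels the 120 min libraries are the lowest, at 0.594 and 0.774 on the left and 28.2 and 35.6 RPKM on the right.

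Among the 19S subunits, Psmd1 rose. Psmd1 is a large scaffold subunit of the base; it had 6.31 to 9.67 RPKM in the libraries at 0 min, 5.72 to 9.28 at 30 min, and 13.1 in WT and 14.7 in Zn4 cells at 120 min. Both 120 min libraries lie above all others (log2 change 0.80, 1.11 relative, SE 0.15, limma adjusted p 0.0035), at 1.96 times the 0 min mean in WT and 1.71 times in Zn4. Of all genes tested, 22.1% had both 120 min libraries above all 0 min libraries, and 20.3% above all 30 min libraries. Outside the cap, Psme4, the alternative activator PA200, rose from 7.01 to 8.48 RPKM at 0 min to 13.9 and 10.8 (log2 change 0.63, 0.94 relative, SE 0.13, limma adjusted p 0.0051). Without the WT 120 min library its adjusted p was 0.066. No other member was called higher, although Psmd12 of the lid had 24.5 and 28.3 RPKM at 120 min, above the 13.2 to 20.3 of all other libraries (log2 change 0.48, limma adjusted p 0.055, and 0.0021 and 0.021 with median ratio scaling and quantile normalization). The windows of the 2 genes called higher are printed for comparison with those above, Psme4 from chr11:30771525-30771824 and Psmd1 from chr1:86064369-86064668, both on the plus strand.
Psme4: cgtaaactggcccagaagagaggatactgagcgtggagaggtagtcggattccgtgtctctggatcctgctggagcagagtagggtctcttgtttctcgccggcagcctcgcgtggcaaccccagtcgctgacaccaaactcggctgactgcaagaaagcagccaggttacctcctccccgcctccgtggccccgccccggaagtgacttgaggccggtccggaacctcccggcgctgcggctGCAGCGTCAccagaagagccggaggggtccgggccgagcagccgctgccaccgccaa
Psmd1: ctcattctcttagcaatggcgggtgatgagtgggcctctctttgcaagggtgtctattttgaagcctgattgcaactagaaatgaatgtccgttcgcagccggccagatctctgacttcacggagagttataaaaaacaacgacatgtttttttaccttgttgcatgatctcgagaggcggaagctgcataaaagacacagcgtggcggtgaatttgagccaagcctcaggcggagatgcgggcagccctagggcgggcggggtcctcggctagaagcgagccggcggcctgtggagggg
Psme4 holds the antioxidant element core on the other strand, GCAGCGTCA, across the start, and Psmd1 none of the 3 motifs.

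Of the other 19S genes called lower, Psmd4, a ubiquitin receptor, went from 37.8 to 40.8 RPKM at 0 min to 24.9 in both genotypes (log2 change -0.64, -0.32 relative, limma adjusted p 0.00097). It fell without overlap, as did 43.3% of all genes tested. Psmd14, the deubiquitinase of the lid, went from 17.2 to 23.8 RPKM to 10.2 and 13.4 (log2 change -0.71, limma adjusted p 0.015). That call was lost with median ratio scaling (0.13) and without the WT (0.089) or the Zn4 120 min library (0.053). The lid subunit Psmd3 (-0.32, 0.00 relative, limma adjusted p 0.045) changed by the amount of the median gene; its change was 0.08 with median ratio scaling, and the call was lost under both other scalings and without any library other than Zn4 0 min replicate 1 and the Zn4 30 min libraries (adjusted p up to 0.16). The ATPase gene Psmc1 was called lower (-0.59, -0.27 relative, limma adjusted p 0.024), but not with median ratio scaling (0.275), nor without WT 0 min replicate 2 (0.064), Zn4 0 min replicate 2 (0.063), or the WT (0.063) or Zn4 (0.15) 120 min library. The other 5 ATPases had log2 changes between -0.18 (Psmc5) and 0.05 (Psmc2), which is 0.14 to 0.37 relative to the median gene, and none was called. In the lid Psmd13 had a log2 change of -0.56 with a limma adjusted p of 0.051.

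In the core, Psma1, Psma4 and Psma6 were called lower and Psma2, Psma3, Psma5 and Psma7 were not. Psma1 went from 23.4 to 35.8 RPKM at 0 min to 15.4 and 13.9 (log2 change -0.93, -0.61 relative, SE 0.17, limma adjusted p 0.0027), and Psma4 from 12 to 17.0 RPKM to 6.31 and 10.5 (-0.72, -0.41 relative, SE 0.10, limma adjusted p 0.00090). Psma6 changed by -0.59 (limma adjusted p 0.0084), a call lost with median ratio scaling (0.18) and without the Zn4 120 min library (0.20). Psma7 had 25.5 to 41.9 RPKM at 0 min and 29.9 and 35.6 at 120 min, and Psma2 41.6 to 76.9 and then 46.0 and 55.6, so that both groups overlap. In the constitutive beta ring only Psmb4 was called (67.3 to 91.1 RPKM at 0 min, 46.6 and 54.5 at 120 min; -0.63, limma adjusted p 0.013). Its call was lost with median ratio scaling (0.21) and without the WT (0.066) or Zn4 (0.057) 120 min library. Psmb1 had a log2 change of -0.32 and Psmb2 of 0.30, neither called. Psme3, the nuclear PA28 gamma, fell from 43.8 to 54.3 RPKM to 25.2 and 25.3 (-0.91, -0.59 relative, SE 0.10, limma adjusted p 0.00026). Psmf1, the proteasome inhibitor PI31, went from 6.4 to 7.07 RPKM to 4.20 and 3.31 (-0.72, limma adjusted p 0.0017), called lower as deposited and with median ratio scaling but not with quantile normalization (0.092). Psmc3ip was not called (-0.54).

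At 30 min no member was called higher and 11 were called lower, which is 22.9% of the members beside 12.5% of all genes; 6.51% of all genes were called higher. No member had an unadjusted p below 0.05 in the higher direction, and voom on the estimated reads called 16 lower and 0 higher. The changes were small: the median over the members was -0.28, or -0.15 relative to the median gene, and 36 of 48 lay below the median gene. The 11 spread over 6 roles and included Psmb8 (-0.58, limma adjusted p 0.016) and Psmb9 (-0.67, 0.030) of the immunoproteasome, Psma4 (-0.52, 0.0099), Psma6 (-0.53, 0.021), Psmc1 (-0.69, 0.021), Psme3 (-0.45, 0.013) and Psmd7 (-0.63, 0.0080). Psmd7, the partner of the deubiquitinase in the lid, had 28.9 to 31.0 RPKM in all libraries at 0 min and 17.8 to 22.6 at 30 min. It fell without overlap, as did 15.0% of all genes tested. Besides the genes named above, Psmd2, Psmd5, Psmd6 and Psmg3 were called, of which Psmd5, Psmd6 and Psmg3 under no other scaling and Psmd2 not with the median ratio. With the library scalings, 7 (median ratio) and 9 (quantile) members were called lower. Over all genes tested these scalings called 835 and 1027 lower. Only Psma4 and Psmd7 kept the call without each library in turn. Leaving out WT 0 min replicate 2 or WT 30 min replicate 1 ended 9 of the 11 calls each, Zn4 0 min replicate 2 ended 8, Zn4 30 min replicate 1 ended 7, WT 30 min replicate 2 ended 6, WT 0 min replicate 1 and Zn4 0 min replicate 1 ended 5 each, and Zn4 30 min replicate 2 ended 2. The count called lower ran from 2 to 13 over these fits.

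From 30 to 120 min 11 members were called lower and 5 higher, beside 31.3% and 16.9% of all genes. The 5 that rose were Psmd1 (0.88, limma adjusted p 0.0034), Psmd12 (0.71, 0.017), Psmd2 (0.48, 0.026), Psmd7 (0.92, 0.00091) and Psme4 (0.72, 0.0039), of which 4 belong to the 19S cap. Psmd7 went from 17.8 to 22.6 RPKM at 30 min to 41.0 in WT and 33.3 in Zn4 cells, above the 28.9 to 31.0 of the 0 min libraries, so that it dipped and came back. Psmd2, a scaffold subunit of the base like Psmd1, went from 26.0 to 36.2 RPKM at 0 min to 19.1 to 28.0 at 30 min and 31.0 and 34.8 at 120 min. The calls for Psmd1, Psmd7 and Psme4 held without each library, those for Psmd12 not without the Zn4 120 min library (0.12) and those for Psmd2 not without WT 30 min replicate 1 (0.068), Zn4 30 min replicate 1 (0.057), or the WT (0.13) or Zn4 (0.086) 120 min library. Falls over this interval included Psmb9 (-1.75), Psmg2 (-1.33), Psmb10 (-1.18), Psmg4 (-1.16) and Psme1 (-0.90). Without the Zn4 120 min library the adjusted p was 0.065 for Psmb10, 0.060 for Psme1 and 0.061 for Psmg4, and without the WT 120 min library 0.057 for Psmg4. This comparison uses the 30 and 120 min libraries again and is no independent evidence. Low values in the 30 min libraries enter both the fall before and the rise after, as for Psmd7 and Psmd2. With median ratio scaling the counts were 13 higher and 6 lower, and with quantile normalization 9 each. Over all genes tested these scalings called 3142 higher and 3041 lower, and 2878 higher and 2738 lower. Over the 3 comparisons, 3 members were called lower at each step and from 0 to 120 min, 2 fell at 30 min and rose afterwards, and 21 were called in none. The shares of all genes with these patterns were not counted, so whether the members differ from all genes in them is not known.

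At 120 min Psmb9, Psmb10 and Psmg2 were called lower in each genotype, also without each library in turn other than that genotype's 120 min library, without which there is no fit, and no difference between the genotypes' responses passed the test. In WT cells at 120 min 14 members were called lower and 2 higher (29.5% and 14.2% of all genes), and in Zn4 cells 15 and 1 (32.6% and 14.7%). The relative change of Psmb9 was -1.99 in WT and -2.21 in Zn4 cells, of Psmb10 -1.25 and -1.24, of Psme1 -0.81 and -0.65, of Psmg2 -1.66 and -1.10 and of Psmd1 1.16 and 1.07. At 30 min WT cells had 2 members called lower, Psmb8 (-0.77, limma adjusted p 0.037) and Psmd7 (-0.72, 0.031), and 0 higher, beside 2.82% and 3.21% of all genes; both calls were lost without any 1 of the 4 WT libraries of 0 and 30 min, with adjusted p of up to 0.20 for Psmb8 and 0.15 for Psmd7, and that for Psmd7 also without either Zn4 0 min library (0.051 each). In Zn4 cells limma called 0 members lower and 0 higher at 30 min, beside 1.06% and 1.68% of all genes, with 14 and 0 at an unadjusted p below 0.05 and 3 and 0 called by voom. In the test of the difference between the genotypes' responses, limma and voom called 0 members at 30 or 120 min, and limma called 0 of all genes. At 30 min no member had an unadjusted p below 0.05 in limma, and at 120 min 1 had, Psmg1 (log2 difference 1.31, SE 0.46, unadjusted p 0.024, adjusted p 0.89). Psmb10 fell from 94.2 and 121 to 58.7 and 71.0 RPKM in WT cells by 30 min and had 111 and 151, then 109 and 142 RPKM in Zn4 cells; the test of that difference gave 0.66 (SE 0.31, limma adjusted p 0.88).

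Between genotypes, 6 proteasome genes passed the test, all of them higher in Zn4 cells. The mean in Zn4 cells was above that in WT cells at all 3 times for 28 of the 48 members (58.3%) and for 22.9% of all genes tested, a count with no test. In a model with genotype and time, 6 members (12.5%) were called higher in Zn4 cells and 0 lower, beside 6.19% and 3.24% of all genes. No member had an unadjusted p below 0.05 in the lower direction, and voom called 7 higher and 0 lower. The member median was 0.24, or 0.23 relative to the median gene, and 42 of 48 lay above it. The 6 were Psmb8, Psmb9, Psme2b, Psma4, Psma7 and Psmb7. Psmb8 had the largest difference, 0.77 on the log2 scale (0.76 relative, SE 0.11, limma adjusted p 0.0025). It had 77.1 and 92.1 RPKM in Zn4 against 51.0 and 55.8 in WT cells at 0 min. At 30 min it had 57.0 and 71.7 against 30.8 and 31.1, and at 120 min, with 1 library each, 46.8 against 32.3. Psmb9 differed by 0.67 (0.66 relative, SE 0.15, limma adjusted p 0.027), with 52.7 and 64.7 against 38.4 and 41.2 RPKM at 0 min. For Psma4 the difference was 0.47 (limma adjusted p 0.0054), for Psma7 0.46 (0.021), for Psmb7 0.52 (0.036) and for Psme2b 0.57 (0.010). All 6 calls held under each scaling. Those for Psmb8, Psma4 and Psme2b also held without each library. The call for Psmb9 was lost without WT 0 min replicate 1 (0.065) or 2 (0.054), WT 30 min replicate 1 (0.069) or 2 (0.063) or Zn4 0 min replicate 2 (0.074), that for Psma7 without WT 0 min replicate 1 (0.057) or 2 (0.060), WT 30 min replicate 1 (0.067) or Zn4 0 min replicate 2 (0.056), and that for Psmb7 without any library other than WT 30 min replicate 2 or Zn4 30 min replicate 1, with adjusted p of up to 0.099, and in the model of 0 and 30 min alone (0.061). Psmb10 (0.53), Psme1 (0.38) and Psme2 (0.39) had limma adjusted p of 0.082, 0.10 and 0.076. The 5 immunoproteasome genes had a median relative difference of 0.52 and the other 43 one of 0.20, with 2 and 4 called.

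**Figure D5:**
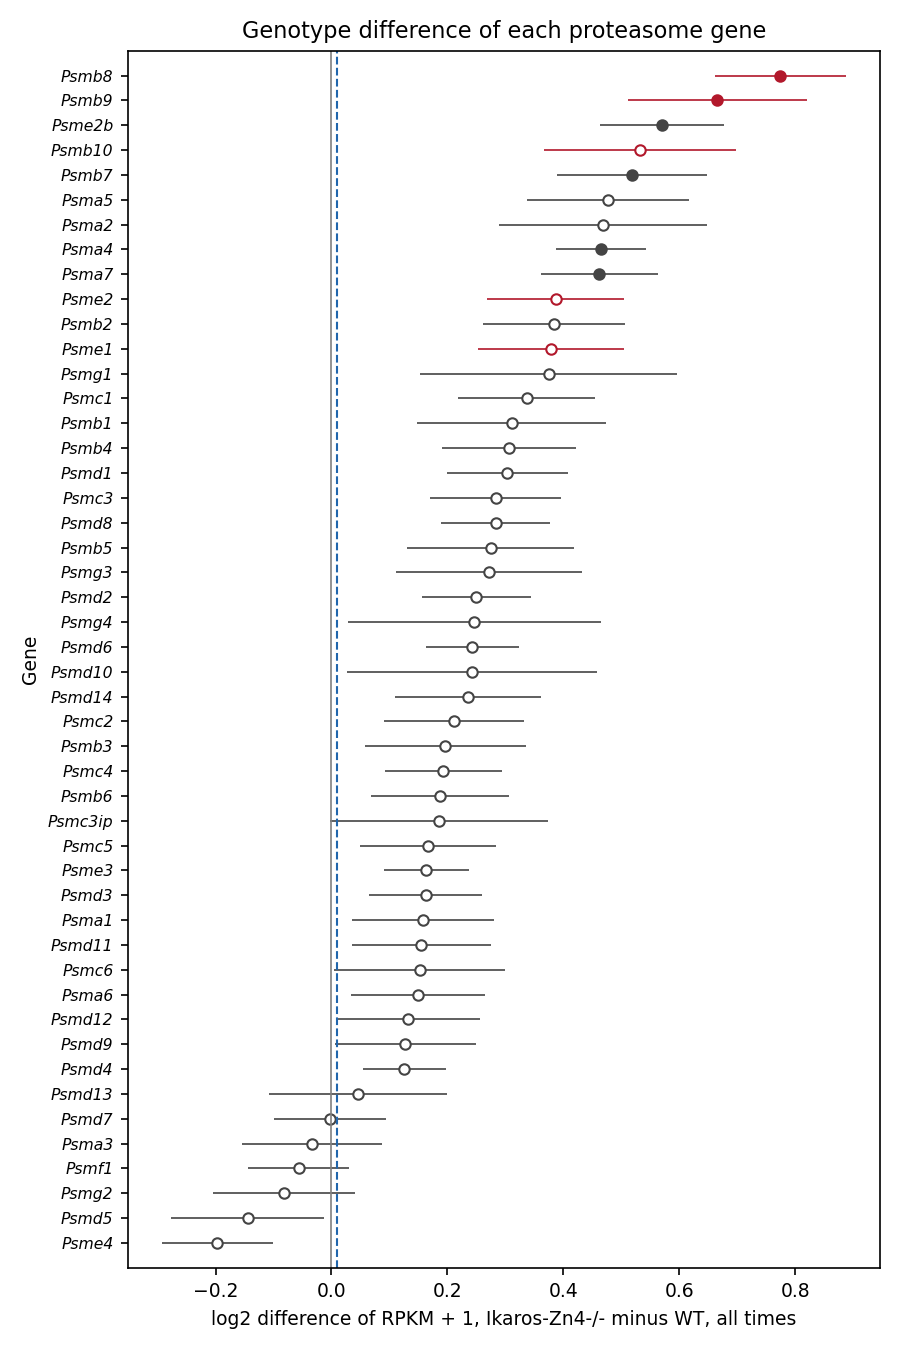
Each row is 1 of the 48 proteasome genes, with the log2 difference of RPKM + 1 between Ikaros-Zn4-/- and WT cells over all times and its standard error; filled points had a limma adjusted p below 0.05, red marks the immunoproteasome set and the dashed line the median of all genes. Psmb8 and Psmb9 are at the top, at 0.77 and 0.67, and Psme4 at the bottom.

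At single times few members passed. At 0 min limma called 0 members higher or lower in Zn4 cells, beside 1.92% and 0.557% of all genes, with 8 and 0 at an unadjusted p below 0.05 and 2 and 0 called by voom. At 30 min Psmb8 alone was called higher (1.03, SE 0.15, limma adjusted p 0.021) and 0 lower, beside 2.01% and 0.606% of all genes; 13 members had an unadjusted p below 0.05 in the higher and 0 in the lower direction, and voom called 3 and 0. The Psmb8 call was lost without WT 0 min replicate 1 or 2 (0.052 each), WT 30 min replicate 1 (0.14) or 2 (0.15) or Zn4 30 min replicate 2 (0.12). At 120 min, 1 library against 1 with no test, 32 of 48 members and 48.8% of all genes tested were higher in the Zn4 library, with a median log2 difference over the members of 0.150 where the median of all genes was 0.00.

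Markers moved with genotype too. All 8 CD8 T cell markers lay above the median gene in Zn4 cells, with a median relative difference of 0.30 beside 0.23 for the proteasome genes, and Lck (0.43, limma adjusted p 0.025) and Thy1 (0.43, 0.032, not called with quantile normalization) were called higher; their summed level at 0 min was 3828 and 4381 RPKM in WT and 5045 and 4806 in Zn4 libraries. Of the B cell list 3 of 6 genes are in the table (Cd79a, Cd79b and Cd74), and their summed level was 9.61 to 16.1 RPKM in WT and 29.8 to 49.4 in Zn4 libraries. Most of it in Zn4 libraries was Cd74, the invariant chain of MHC class II (0.793 to 3.04 RPKM in WT, 20.3 to 41.4 in Zn4), while the B cell receptor gene Cd79b was lower in Zn4 cells (log2 difference -0.83, limma adjusted p 0.0024), and Ms4a1 and Pax5 are not in the table. Of the NK cell list only Gzma is in the table, at 0 to 0.212 RPKM in WT and 2.10 to 9.28 in Zn4 libraries. Of the 9 genes of the myeloid and dendritic list 3 are in the table, with a summed level of 8.14 to 24.8 RPKM in WT and 8.59 to 34.2 in Zn4 libraries. Itgam alone was called higher (0.90, limma adjusted p 0.0027), at low levels of 0.164 to 0.307 RPKM in WT and 0.869 to 1.61 in Zn4 libraries. Lyz2 and Cst3 were not called. Of the 7 interferon-linked regulators, Irf8 (0.74, limma adjusted p 0.024) was called higher in Zn4 cells, and so was Tap1 of the class I pathway (0.44, 0.028). The part of these genes in the higher proteasome values was not tested.

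All 10 genes of a list of regulators of proteasome transcription were called at 120 min, where 19.3% of all genes were called higher and 40.4% lower. NRF1, encoded by Nfe2l1, drives proteasome genes when proteasome activity is low, after Vcp, Ngly1 and the protease Ddi2 have released it from the endoplasmic reticulum; NRF2, encoded by Nfe2l2 and restrained by Keap1, and the small Maf proteins bind the same kind of element. This list, like the ones that follow, was fixed with earlier results of these data known. Of these genes, 8 were called higher and 2 lower at 120 min, with a median relative change of 1.46. Nfe2l1 had 18.3 to 21.1 RPKM at 0 min, 13.3 to 18.2 at 30 min and 42.5 and 41.1 at 120 min (log2 change 1.04, limma adjusted p 0.0012), and Nfe2l2 15.1 to 20.6, then 22 to 36.1, then 66.1 and 76.3 (1.98, 4.5e-05). Maff went from 1.12 to 5.27 RPKM at 0 min to 40.9 to 71.3 at 30 min and 21.8 and 17.3 at 120 min. At 120 min Mafg (2.22), Bach1 (2.06) and Vcp (0.93) were called higher, and Ngly1 (-1.43, limma adjusted p 0.00064) and Keap1 (-0.97, 0.0020) lower. By genotype limma called 0 of the 10.

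Proteasome partners without a Psm name were mixed, with 4 of 11 tested genes called higher and 3 lower at 120 min; for this and the following lists the shares of all genes are again 19.3% higher and 40.4% lower. Among them Zfand2a (1.24), Akirin2 (0.72), which brings proteasomes into the nucleus, the ubiquitin receptor Adrm1 (0.67, limma adjusted p 0.0099) and Zfand5 (0.48) were higher, and Zfand2b (-1.14), the cap subunit Shfm1 (-0.88, 0.0036) and Pomp lower. Of 15 tested ubiquitin and shuttle genes 6 were called higher and 3 lower: Ube4b (1.64) and Uba6 (1.24) were the furthest up, and the shuttle factor Rad23b was called higher too (0.71). Of 11 class I antigen processing genes 6 were called lower and 1 higher, 4 and 1 under each scaling. Tapbp changed by -1.31, Erap1, which trims peptides, by -1.07, Tapbpl by -1.0, and Tap2, at 62.1 to 81.9 RPKM at 0 min and 32.7 and 38.4 at 120 min, by -0.96 (limma adjusted p 0.00097), whereas the chaperone Calr rose by 1.41 (8.1e-05). Of the interferon-linked regulators Nlrc5, the transactivator of class I genes, went from 81.1 to 119 RPKM to 25.9 and 28.6 (log2 change -1.83, limma adjusted p 7.3e-05). Irf1, which activates Psmb9 and Tap1, had 86.0 to 144 RPKM at 0 min, 166 to 204 at 30 min (0.76, limma adjusted p 0.017) and 86.6 and 147 at 120 min (0.09, 0.70).

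Promoter windows of RefSeq were found for 41 of the 48 members (44 windows). The antioxidant element core TGACNNNGC, or GCNNNGTCA on the other strand, was present in 14.6% of these genes (Psmb5, Psmb6, Psmc6, Psmd12, Psmd9 and Psme4) and in 14.0% of the 27025 genes with a window. GAAANNGAA, or TTCNNTTTC, was present in 17.1% (Psmb3, Psmb4, Psmc2, Psmd4, Psmd9, Psme1 and Psmg4) against 9.76%, and TTCNNNGAA, which reads the same on both strands, in 7.32% (Psmb8, Psmd2 and Psmg1) against 9.55%. At 120 min, of the 6 genes with the first motif Psme4 was called higher and 5 were not called, of the 7 with the second Psmb4, Psmd4, Psme1 and Psmg4 were called lower and 3 were not called, and of those with the third Psmb8 and Psmg1 were called lower. Of all genes 40.4% and of the members 43.8% were called lower at that time, and the calls of Psmb4 and Psmg1 were lost with median ratio scaling. The 48 genes lie on 16 chromosomes, and apart from Psmb8 with Psmb9 and Psme1 with Psme2, the closest members are Psmb4 and Psmd4 on chromosome 3, with 145732 bases between them.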

How the data were processed

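RNA was sequenced as single-end, unstranded libraries from 10 samples. Per the submitters' processing notes, TopHat2 2.0.12 and HTSeq 0.6.1 were used with builds mm10 and GRCm38; the handling of ambiguous reads is not given in the sources used here. Values are RPKM: the authors deposited RPKM per gene, per the file headers, and no counts. Depths of 4.50 to 13.3 M reads per library were estimated as those at which most values, with GENCODE M21 gene lengths, are whole reads. Of genes under 200 reads, 65.8% to 71.2% per library then came out whole within 0.01. Of the members 20 were whole within 0.05 in every library and 20 in 2 libraries or fewer, so their reads are estimates.

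Values were analysed as log2(RPKM + 1) in limma 3.58.1 (R 4.3.3), keeping genes whose mean reached 0.5 RPKM, with group means (4 residual degrees of freedom) for time and with genotype plus time (6) for genotype; tests were two-sided and adjusted by Benjamini-Hochberg over 12203 genes. A gene is called at an adjusted p below 0.05. The 120 min libraries have no replicate and borrow the spread of the others; intervals of counting error were not computed. Positions are from GENCODE M21 (12567 of 12637 genes matched) and promoters from RefSeq.

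The members, gene lists and tests were chosen with earlier results of these data known. Named were the immunoproteasome genes, their counterparts, the largest and smallest change of each role at 120 min, members against their role's sign, members called by genotype, and up to 3 genes per other list; all others named were chosen after their values were seen. Alternatives were other pseudocounts, filters, scalings, voom on estimated reads, rounded, a replicate term, other spreads and comparison sets, each library left out, and, chosen after seeing the data, Psme2b in place of Psme2. The scripts were tested on simulated data. A few genes of the other lists are counted but not reported here by name.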

Additional observations from a re-analysis of the deposited data

How the results depend on the processing

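Of 27 gene results, 14 kept their call in every setting. Over all settings 426 values stayed on their side of the threshold, 59 did not and 1 reversed. The reversed value was that of Psmd3 at 120 min, with a change of 0.0752 under median ratio scaling. The median gene changed by -0.316 as deposited and by -0.000382 under that scaling. With median ratio scaling the members called were 7 lower at 30 min, 11 higher at 120 min, 13 higher and 6 lower from 30 to 120 min, 7 higher and 7 lower in WT and 6 higher and 8 lower in Zn4 cells at 120 min, and 2 higher by genotype at 30 min. Quantile normalization gave 4 higher at 120 min, 9 higher from 30 to 120 min, 1 lower in Zn4 cells at 30 min, 2 higher in Zn4 cells at 120 min and 2 higher by genotype at 0 min. Of all genes tested it called 3411 higher at 120 min and 2878 higher from 30 to 120 min. In Zn4 cells it called 125 lower at 30 min and 2565 higher at 120 min, and by genotype 239 higher at 0 min. A filter at a mean of 2 RPKM gave 4 lower in WT and 1 lower in Zn4 cells at 30 min. Voom on estimated reads gave 6 lower in WT and 3 lower in Zn4 cells at 30 min, 2 higher in Zn4 cells at 120 min, and 2 higher at 0 min and 3 higher at 30 min by genotype. With the spread taken from just the groups compared there were 0 lower in WT cells at 30 min, 1 higher in WT and 0 higher and 6 lower in Zn4 cells at 120 min, and 0 higher by genotype at 30 min; other causes of these shifts were not tested. Without each library in turn the counts ran from 2 to 13 lower at 30 min, 1 to 4 higher and 14 to 22 lower at 120 min, 3 to 6 higher and 2 to 13 lower from 30 to 120 min, 0 to 3 lower in WT cells at 30 min, 0 to 3 higher and 7 to 16 lower in WT and 0 to 1 higher and 13 to 19 lower in Zn4 cells at 120 min, 3 to 8 higher by genotype over all times and 0 to 1 at 30 min. The immunoproteasome difference ran from -0.167 to -0.0876 at 30 min and from -0.922 to -0.843 at 120 min; as a difference of medians it was -0.277 and -0.577, against the 20S and 19S subunits -1.04 at 120 min, and with Psme2b for Psme2, chosen after seeing the data, -1.0. Libraries share replicate numbers but no stated source, and the correlations of same-numbered libraries' deviations were 0.037 to 0.230 over 6 pairs of groups, all above 0 but 1 not above 0.1, so the numbers were not taken to pair them. With the replicate block, 18 members were lower at 30 min, 11 in WT and 6 in Zn4 cells, 26 were lower and 2 higher in Zn4 cells at 120 min, and 16 were higher by genotype over all times, 2 at 0 min and 3 at 30 min. The shares of all genes called with this block, and in the settings other than the 2 scalings, are not reported here. Depth limits Psmc3ip (5 to 29 reads per library) and Psmg3 (10 to 84).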
